A study of Drosophila melanogaster with 7 samples.

Results

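The genes described here encode subunits of the mitochondrial respiratory chain and of the ATP synthase in Drosophila melanogaster. Members were taken by symbol: every gene whose current symbol starts with ND- (complex I), UQCR- (complex III), COX and a digit (complex IV) or ATPsyn (complex V), with a value on at least 1 array. The gene table holds 83 such symbols, of which 65 had a named probe and 50 had a value, among 5971 genes with a value in all. Complex I supplied 26 of the 50, complex III 4, complex IV 7 and complex V 13. A value from all 4 RNA extractions was needed for testing, which 45 of the 50 had, among 3586 tested genes. The rule used gene names and the presence of a value, not its size, and it was set with earlier results of these data known. COX1, COX2 and COX3 of the mitochondrial genome meet the rule but had no named probe, and subunits kept under older names fall outside it.

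The chain in the inner mitochondrial membrane passes electrons from NADH through complex I, from succinate through complex II, and then through complex III, cytochrome c and complex IV to oxygen. Complexes I, III and IV pump protons as they do so, and the ATP synthase, complex V, lets the protons back to drive the synthesis of ATP from ADP. A small catalytic core in each complex does the chemistry and is surrounded by many small accessory subunits, most of them made in the cytosol from nuclear genes. In the third instar eye disc, dividing cells lie ahead of the morphogenetic furrow and differentiating photoreceptors behind it, and all of them carry mitochondria.

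RNA came from eye imaginal discs of larvae in the third instar, staged with bromophenol blue, in a w1118 background. The first mutant group was sevS11, known as a constitutively active form of the Sevenless receptor tyrosine kinase, and the second was sevd2 (sevd2;+;+), known as a loss-of-function allele of the same gene. Both were hybridised on 2-colour arrays against 1 common pool of RNA from the isogenic wild-type strain w1118;+;+, so the 2 genotypes share their reference. Each genotype had 2 RNA extractions: sevS11 had 3 arrays, a dye-swapped pair for extraction 1 and 1 unswapped array for extraction 2, and sevd2 had 4 arrays, a dye-swapped pair for each extraction. The labels give no promoter or line number for sevS11 and do not state that different animals went into each extraction, so the p-values reflect only how far the extractions lie apart, a spread that can be purely technical. The values are log2 ratios, likely of mutant over w1118, where 0 is equal signal. Ratios of different genes are compared as differences from the reference, since a 2-colour ratio gives no level of a gene.

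Between 5194 and 7009 probes had a value on the sevS11 arrays and between 4701 and 5691 on the sevd2 arrays. The transcript of sev itself had log2 ratios of 1.81, 1.90 and 4.33 on the 3 sevS11 arrays, against -0.46, -0.17 and -0.41 on the 3 sevd2 arrays with a value. It averaged 3.14 ± 0.54 in sevS11 (limma, SE, n = 2 extractions, adjusted p = 0.0367). The 2 sevS11 extractions lay far apart for sev itself, at 1.85 in extraction 1 and 4.43 in extraction 2. The SE rests on a spread shared with sevd2, whose extractions had -0.32 and -0.41. The direction of the deposited ratios rests on these signs. One label field calls the w1118 pool wing discs where the other fields say eye discs. All 8 eye field and retina markers had a value, with ratios from -0.74 to 0.72 over the 4 extractions, and the 2 of 4 wing field markers with a value lay between -0.15 and 0.28. Of 10 hemocyte (blood cell) markers with a value, 3 (He, PPO1 and PPO2) lay between 0.95 and 1.80 in the sevS11 extractions, against -1.24 to -0.77 in the sevd2 extractions. The others did not all follow. In the sevS11 extractions SPARC had -0.09 and -0.40 and NimC1 had 0.09 and -0.59, while Col4a1 had 0.45 and 0.30. The medians over the hemocyte markers were 0.45 and 0.07 in sevS11 and -0.90 and -0.55 in sevd2, and their part in the results below was not tested. Of the other markers, 1 of 6 for fat body (-0.27 to 0.19), 2 of 4 for glia (-0.57 to 0.11) and none of 4 for muscle precursors had a value.

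Most subunit genes lay above the reference in 1 of the 2 sevS11 extractions and near it in every other extraction. In sevS11 extraction 1, 39 of 45 tested genes had a ratio above 0, which was the case for 45.9% of all tested genes. In sevS11 extraction 2 it was 17 of 45, against 50.8% of all tested genes. The median log2 ratio of the 45 genes was 0.53 in sevS11 extraction 1 and -0.07 in sevS11 extraction 2, against 0.00 and 0.05 in the sevd2 extractions, while the medians over all tested genes lay between -0.03 and 0.01. The ratio was higher in sevS11 extraction 1 than in sevS11 extraction 2 for 37 of 45 genes, as for 48.1% of all tested genes. The median gap between the 2 sevS11 extractions was 0.57 over these genes and -0.02 over all tested genes, and the gap between the sevd2 extractions was -0.06 over these genes.

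The high ratios of sevS11 extraction 1 stood on both of its arrays, which held the same RNA with the dyes exchanged. The median over the tested subunit genes was 0.43 on sevS11 replicate 1 and 0.58 on replicate 2, and -0.06 on replicate 3, the array of extraction 2. The 4 sevd2 arrays had medians of 0.05, -0.03, 0.09 and 0.01. Of 37 genes with a value on both arrays of sevS11 extraction 1, 32 were above 0 on both, which held for 38.5% of all tested genes with both values.

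**Figure D1:**
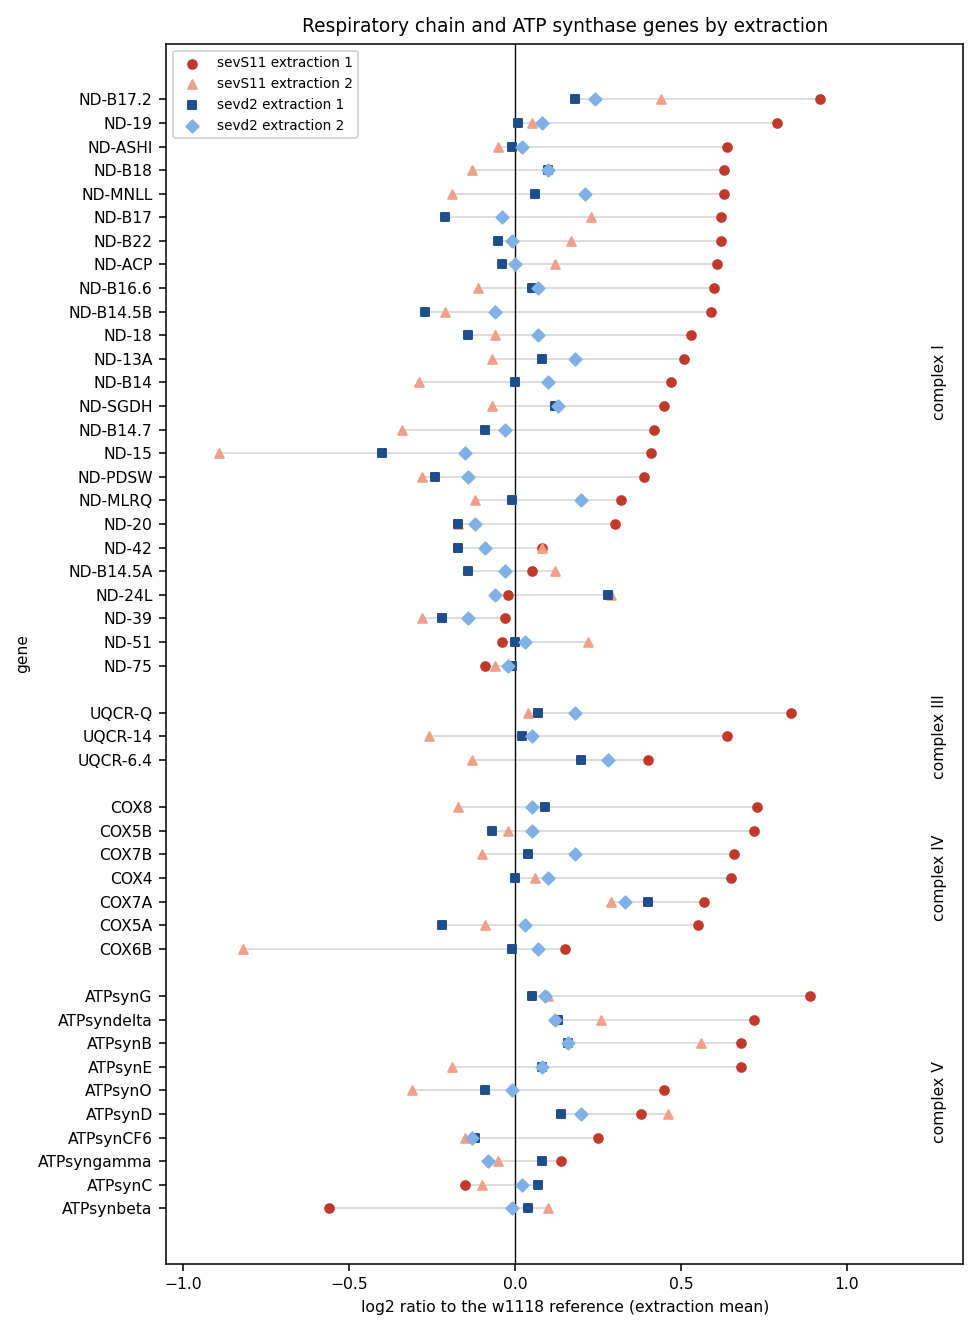
Log2 ratio to the w1118 reference (x axis) of each of the 45 tested genes (y axis, grouped by complex and ordered by sevS11 extraction 1), with 1 point per extraction and a grey line from the lowest to the highest. The points of sevS11 extraction 1 lie to the right of the others for most genes, and ATPsynbeta stands at -0.56 on the left.

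In each complex the median was highest in sevS11 extraction 1. Complex I had medians of 0.47 and -0.07 in the sevS11 extractions, against -0.01 and 0.00 in the sevd2 extractions, over 25 genes. Complex III, with 3 genes, had 0.64 and -0.13 in sevS11, against 0.07 and 0.18 in sevd2. The 7 genes of complex IV had medians of 0.65 and -0.09 in sevS11, against 0.00 and 0.07 in sevd2. For the 10 genes of complex V the medians were 0.41 and 0.02 in sevS11, against 0.08 and 0.05 in sevd2. Above 0 in sevS11 extraction 1 were 21 genes of complex I, 3 of complex III, 7 of complex IV and 8 of complex V. The quartiles of the 4 complexes overlapped in that extraction, and complex V had the widest, from 0.17 to 0.68. The median gap between the 2 sevS11 extractions was 0.52 for complex I, 0.79 for complex III, 0.74 for complex IV and 0.29 for complex V, and no test compared the complexes.

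**Figure D2:**
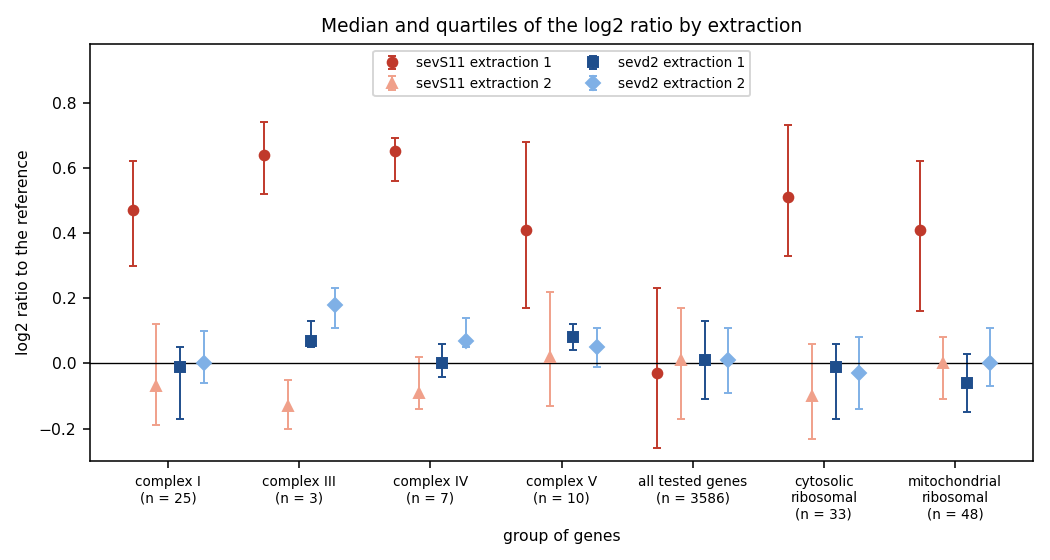
Median log2 ratio (y axis, points) with lower and upper quartiles (bars) in each of the 4 extractions, for complexes I, III, IV and V, all tested genes, and cytosolic and mitochondrial ribosomal protein genes (x axis, n genes each). In sevS11 extraction 1 all 4 complexes have medians from 0.41 to 0.65 and all tested genes -0.03.

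Averaged over its 2 extractions, sevS11 was higher than the reference for 2 of 45 subunit genes and lower for none at an adjusted p under 0.05 (limma, Benjamini-Hochberg over all tested genes), against 5.77% of all tested genes called in either direction. The 2 genes were ATPsynB and ND-B17.2. Before adjustment, 9 genes or 20% of the 45 had a p under 0.05, against 25.3% of all tested genes. Both sevS11 extractions were above 0 for 14 genes, or 31.1%, against 28.6% of all tested genes. Both shares are near those of the array as a whole. Without the array of sevS11 extraction 2, 37 of 46 genes passed, 36 higher and ATPsynbeta lower, against 46.9% of all genes tested in that fit. Without extraction 1, 11 of 45 passed, 3 higher and 8 lower, against 24.7% of all genes. None passed without sevS11 replicate 1, against 1.75% of all genes tested in that fit. The fits without an extraction assume that the lone extraction varies like those of the other genotype.

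In sevd2 no subunit gene passed, against 0.0837% of all tested genes (limma). The fit uses 1 spread for both genotypes, so the gap between the sevS11 extractions also enters the SE of sevd2. UQCR-6.4, for example, had 0.20 and 0.28 in the sevd2 extractions and 0.40 and -0.13 in sevS11, with an SE of 0.14 in both genotypes. The absence of calls is therefore no measure of how closely the sevd2 extractions agreed. A single gene, COX7A, or 2.22% of the 45, had an unadjusted p under 0.05, against 9.76% of all tested genes. The medians of the fitted sevd2 ratios were -0.02 for complex I, 0.13 for complex III, 0.05 for complex IV and 0.06 for complex V, and 0.01 for all tested genes. The corresponding sevS11 medians were 0.19, 0.19, 0.28 and 0.16, and 0.00 for all tested genes.

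ND-B17.2, an accessory subunit of the peripheral arm of complex I, had the highest sevS11 ratio of the tested complex I genes. It stood at 0.97, 0.87 and 0.49 on the 3 sevS11 arrays, against 0.26, 0.10, 0.26 and 0.22 on the 4 sevd2 arrays. All 7 arrays were above 0, and the sevS11 arrays were above every sevd2 array. The mean was 0.68 ± 0.14 in sevS11 (limma, SE, n = 2 extractions, adjusted p = 0.0486) and 0.21 ± 0.14 in sevd2 (adjusted p = 0.704). The call was narrow: it was lost without the dye correction (0.70, adjusted p = 0.0504) and with arrays centred on their medians (0.69, adjusted p = 0.0518). The difference between the genotypes, 0.47 with a 95% interval from -0.01 to 0.94, did not pass (adjusted p = 0.393).

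Other accessory subunits of complex I were high in sevS11 extraction 1 and near the reference elsewhere. ND-19, another accessory subunit, had 0.68, 0.90 and 0.10 on the sevS11 arrays, against 0.11, -0.09, 0.22 and -0.05 on the sevd2 arrays. ND-B17, in the membrane arm, had 0.36, 0.88 and 0.03 on the sevS11 arrays, against -0.45, 0.03, -0.12 and 0.04 on the sevd2 arrays. ND-MNLL had no value on sevS11 replicate 1 and then 0.63 and -0.03, against 0.21, -0.08, 0.38 and 0.04 in sevd2. In each of these the third sevS11 array fell within the range of the sevd2 arrays. ND-ACP, the acyl carrier protein that also serves mitochondrial fatty acid synthesis, had 0.68, 0.54 and 0.20 on the sevS11 arrays and 0.03, -0.12, 0.09 and -0.09 on the sevd2 arrays. Its sevS11 mean of 0.36 ± 0.14 did not pass (adjusted p = 0.173), although its sevS11 arrays lay above every sevd2 array. ND-MLRQ, whose mammalian counterpart is now placed in complex IV, had 0.37, 0.27 and -0.04 on the sevS11 arrays, against 0.07, -0.09, 0.31 and 0.10 in sevd2, and so overlapped.

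The 3 tested genes of the catalytic core of complex I had ratios between -0.09 and 0.30 in sevS11 extraction 1, and no test set them against the accessory subunits. ND-75, which carries iron-sulfur clusters at the tip of the peripheral arm, had 0.00, -0.17 and 0.03 on the sevS11 arrays, against 0.11, -0.13, 0.07 and -0.11 on the sevd2 arrays. ND-51, which binds the flavin that takes electrons from NADH, had 0.10, -0.19 and 0.35 in sevS11 and 0.16, -0.16, 0.13 and -0.07 in sevd2. In both genes the array with the mutant in Cy5 gave the higher value of every pair, and the arrays of the genotypes overlapped. ND-20, which holds the iron-sulfur cluster next to the quinone site, had 0.15, 0.44 and -0.28 in sevS11, against -0.28, -0.05, -0.21 and -0.04 in sevd2. The median of these 3 catalytic core genes was -0.04 in sevS11 extraction 1, and none passed in any comparison. Of the accessory subunits, ND-39 had -0.16, 0.10 and -0.32 in sevS11, against -0.21, -0.22, -0.12 and -0.15 in sevd2. ND-42 had 0.08, 0.08 and 0.06 in sevS11 and -0.20, -0.14, -0.12 and -0.06 in sevd2, with small values of opposite sign in the 2 genotypes. ND-B14.5A and ND-24L, the relative of a core subunit, were also near the reference in sevS11 extraction 1, at 0.05 and -0.02.

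ND-15, a small accessory subunit, had the lowest mean ratio of complex I in both genotypes. It had no value on sevS11 replicate 1, then 0.41 on replicate 2 and -1.08 on replicate 3, against -0.61, -0.20, -0.32 and 0.02 in sevd2. Its mean was -0.24 ± 0.29 in sevS11 and -0.28 in sevd2, and neither passed (limma, adjusted p = 0.619 and 0.843). ND-PDSW was among the lowest in sevd2, with -0.13, -0.34, -0.02 and -0.25, and had 0.35, 0.43 and -0.22 on the sevS11 arrays.

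In complex III the 3 tested genes encode small subunits around the cytochrome core. UQCR-Q had 0.77, 0.90 and 0.00 on the sevS11 arrays, against 0.02, 0.12, 0.16 and 0.20 on the sevd2 arrays. UQCR-14 had 0.52, 0.76 and -0.26 in sevS11, against 0.06, -0.01, 0.14 and -0.04 in sevd2. UQCR-6.4 had no value on sevS11 replicate 1 and then 0.40 and -0.11, against 0.26, 0.14, 0.27 and 0.29 in sevd2. All 3 put the sevS11 extraction 1 arrays above, and the third sevS11 array below, every sevd2 array. The sevS11 means were 0.44 ± 0.19, 0.19 ± 0.21 and 0.13 ± 0.14, and none passed (limma, adjusted p from 0.221 to 0.593).

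In complex IV the genes tested are nuclear-encoded subunits that surround a core made from mitochondrial genes. COX4, which lies across the membrane beside the core, had 0.65, 0.66 and 0.05 on the sevS11 arrays, against -0.01, 0.01, 0.09 and 0.11 on the sevd2 arrays. COX5A had 0.25, 0.85 and -0.27 in sevS11 and -0.41, -0.03, -0.01 and 0.07 in sevd2. COX5B, a zinc-binding subunit on the matrix side, had 0.51, 0.93 and -0.10 in sevS11, against -0.13, 0.00, 0.06 and 0.04 in sevd2. The smallest subunits, COX7B and COX8, showed the same order, with 0.70, 0.63 and 0.03 and with 0.63, 0.84 and -0.21 on the sevS11 arrays. In sevd2 COX7B had 0.18, -0.11, 0.41 and -0.06, and COX8 lay between 0.02 and 0.10 on all 4 arrays.

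COX7A lay above the reference in both genotypes. This small membrane subunit had 0.63, 0.50 and 0.36 on the sevS11 arrays, against 0.46, 0.33, 0.42 and 0.24 on the sevd2 arrays. Every array of both genotypes was above the reference, and the groups overlapped. The mean was 0.43 ± 0.11 in sevS11 (limma, adjusted p = 0.0858) and 0.36 ± 0.11 in sevd2 (adjusted p = 0.347), so neither passed. With arrays scaled to 1 median absolute value or quantile-normalised, its sevd2 ratio passed (0.46, adjusted p = 0.0332, and 0.48, adjusted p = 0.0356). COX6B, on the side of the intermembrane space, differed from the rest of its complex. It had no value on sevS11 replicate 1, then 0.15 and -0.89, against -0.10, 0.07, 0.02 and 0.12 in sevd2, with a sevS11 mean of -0.33 ± 0.22 (adjusted p = 0.387).

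In complex V the ratios of sevS11 extraction 1 ran from -0.56 for ATPsynbeta to 0.89 for ATPsynG. ATPsynbeta, the subunit on which ATP is made, had -0.68, -0.44 and -0.06 on the sevS11 arrays, against -0.19, 0.27, -0.14 and 0.11 on the sevd2 arrays. It was the only tested gene of the complexes other than ATPsynC with a ratio under -0.10 in sevS11 extraction 1, and its sevS11 mean of -0.23 ± 0.16 did not pass (limma, adjusted p = 0.411). The catalytic partner, ATP synthase alpha, is kept under the older name blw and so falls outside the symbol rule. It had -0.29 in sevS11 extraction 1 and 0.53 in extraction 2, against 0.32 and 0.13 in sevd2. ATPsyngamma, the rotating shaft, stayed near 0, with 0.15, 0.13 and -0.04 in sevS11 and 0.10, 0.07, -0.06 and -0.10 in sevd2.

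Among the remaining stalk genes, ATPsyndelta of the central stalk had 0.76, 0.68 and 0.35 on the sevS11 arrays, against 0.28, -0.01, 0.21 and 0.03 on the sevd2 arrays. Its sevS11 arrays lay above all sevd2 arrays, yet the mean of 0.49 ± 0.13 did not pass (limma, adjusted p = 0.0961). ATPsynD of the peripheral stalk had no value on sevS11 replicate 1 and then 0.38 and 0.53, against 0.17, 0.12, 0.33 and 0.08 in sevd2 (sevS11 mean 0.42 ± 0.09, adjusted p = 0.067). Unlike most subunit genes, ATPsynD was as high in the second sevS11 extraction as in the first. ATPsynO, which ties the stalk to the catalytic head, had 0.36, 0.53 and -0.34 in sevS11, against -0.09, 0.00 and -0.03 on the 3 sevd2 arrays with a value. ATPsynCF6, a small stalk subunit, had 0.29, 0.20 and -0.06 in sevS11 and -0.05, -0.19, 0.01 and -0.27 in sevd2. In the membrane part, ATPsynG, a small subunit that helps hold the enzyme in dimers, had 0.86, 0.91 and 0.16 in sevS11, against 0.16, -0.05, 0.20 and -0.03 in sevd2. ATPsynC, which builds the proton-driven ring, went the other way, with -0.15, -0.15 and -0.11 in sevS11 and 0.07, 0.08, -0.03 and 0.06 in sevd2.

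ATPsynB, the main rod of the peripheral stalk, had the lowest adjusted p of the 45 genes. Its gene mean stood at 0.71, 0.65 and 0.63 on the sevS11 arrays, against 0.01, 0.32, 0.49 and -0.17 on the sevd2 arrays, and averaged 0.62 ± 0.10 in sevS11 (limma, SE, n = 2 extractions, adjusted p = 0.0304) and 0.16 ± 0.10 in sevd2 (adjusted p = 0.688). This mean joins 2 probes that disagreed. The first probe had 0.43, 0.37 and 0.20 on the sevS11 arrays, against 0.01, -0.10, -0.02 and -0.17 on the sevd2 arrays. The second had 0.99, 0.92 and 1.05 on the sevS11 arrays, against 0.74 and 0.99 on sevd2 replicates 2 and 3 and no value on replicates 1 and 4. The gene's sevd2 values were therefore high on the 2 arrays where the second probe was measured. Tested alone, the first probe did not pass in sevS11 (0.27 ± 0.11, adjusted p = 0.184) and the second did (0.98 ± 0.11, adjusted p = 0.0153). The difference between the genotypes was 0.34 ± 0.15 by the first probe and 0.12 ± 0.15 by the second, and neither passed (adjusted p = 0.422 and 0.742).

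**Figure D3:**
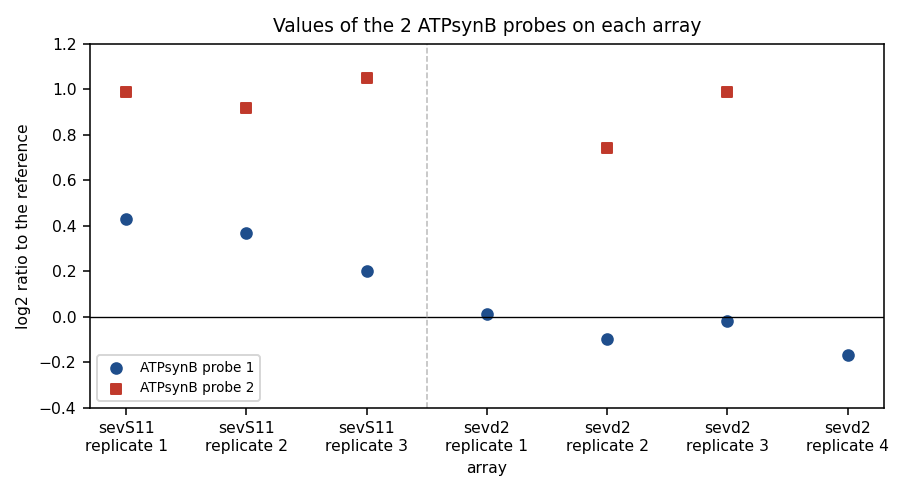
Log2 ratio to the reference (y axis) of the 2 ATPsynB probes on each of the 3 sevS11 and 4 sevd2 arrays (x axis, 1 point per probe and array). Probe 2 lies between 0.74 and 1.05 in both genotypes, and probe 1 is above 0 on the sevS11 arrays and near 0 on the sevd2 arrays.

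Of the 4 other genes with several measured probes, ATPsynE, a small membrane subunit, had 0.68 in sevS11 extraction 1 by both probes. ND-ACP had 0.59 and 0.63 by its 2 probes in that extraction. For ATPsyngamma 1 probe was measured on the sevS11 arrays alone, with 0.26 in extraction 1 against 0.02 by the other, and for ND-MNLL only 1 probe was measured in that extraction.

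The 5 genes with a value that could not be tested were ATPsynF, ATPsynbetaL, ATPsynepsilonL, ND-B12 and UQCR-11L. ATPsynF had 0.66 on sevS11 replicate 1, against 0.02, -0.15 and 0.15 on 3 sevd2 arrays. The other 4 had a value on 1 array each: -0.06 for ATPsynbetaL on sevS11 replicate 3, and on sevd2 replicate 1 0.58 for ATPsynepsilonL, -0.40 for ND-B12 and -0.17 for UQCR-11L.

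Set directly against each other, the genotypes did not differ at an adjusted p under 0.05 for any subunit gene (limma), as for nearly all genes tested, of which 0.0558% passed. Before adjustment, 2 genes, ATPsynB and ND-B17, or 4.44% of the 45, had a p under 0.05, against 12.7% of all tested genes. The medians of the difference, sevS11 minus sevd2, were 0.17 for complex I, 0.16 for complex III, 0.21 for complex IV and 0.17 for complex V, and -0.02 for all tested genes. Both sevS11 extractions lay above both sevd2 extractions for 10 genes, 6 of complex I and 4 of complex V, against 22.3% of all tested genes. Both lay below for 2 genes, ND-75 and ATPsynC, against 26.7%. Both sevS11 extractions were on one side of the reference and both sevd2 extractions on the other for 5 genes, or 11.1%, against 16.3% of all tested genes. For complexes III and IV the extractions of the 2 genotypes overlapped in every gene. Fits without 1 of the sevS11 extractions leave a single extraction of that genotype, so only differences are given here. The difference of ND-15 was 0.68 without the array of sevS11 extraction 2 and -0.62 without sevS11 extraction 1. That of COX6B was -0.85 without sevS11 extraction 1.

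The intervals show what differences the 4 extractions leave possible. The largest positive difference was that of ND-B17, 0.54 with a 95% interval from 0.10 to 0.99. For ND-B17 the array of sevS11 extraction 2 read 0.03, and the dye correction raised this to 0.23. Next came ND-B17.2 and then ATPsynB with 0.46 (0.12 to 0.79). The ATPsynB value exceeds those of both its probes, 0.34 and 0.12, because the probe with the higher ratios had no value on sevd2 replicates 1 and 4. These intervals are not adjusted for the number of genes. The largest negative difference was that of COX6B, -0.36, with an interval from -1.14 to 0.42. COX5B and COX5A led complex IV with 0.36 (-0.27 to 0.99) and 0.32 (-0.27 to 0.92), and UQCR-Q led complex III with 0.31 (-0.35 to 0.97). Some intervals were narrower: ND-75 differed by -0.06 (-0.38 to 0.26), ATPsyngamma by 0.05 (-0.32 to 0.41) and COX7A by 0.06 (-0.32 to 0.44).

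**Figure D4:**
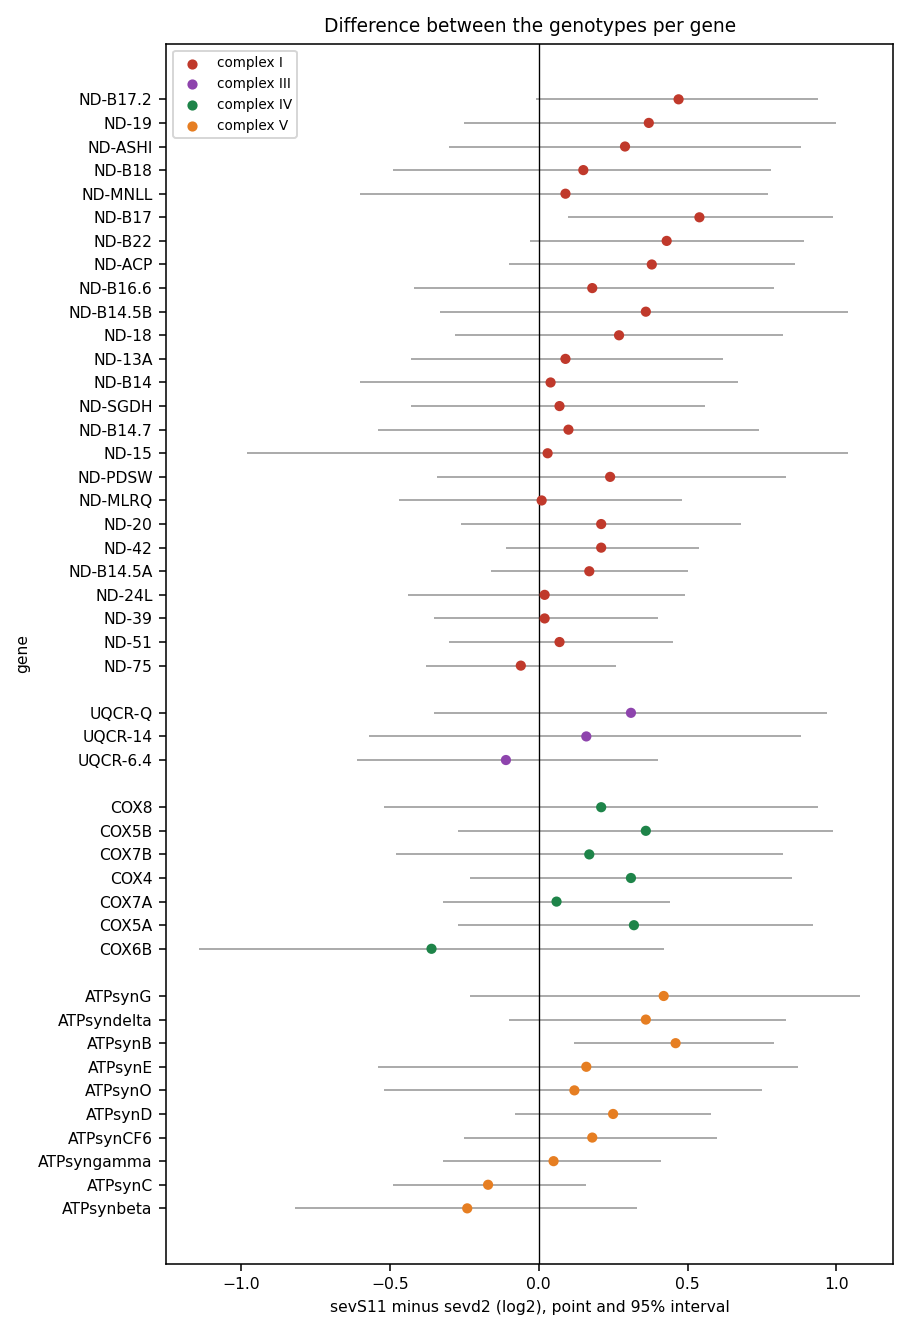
Difference in log2 ratio, sevS11 minus sevd2 (x axis), for each of the 45 tested genes (y axis), as a point with its unadjusted 95% interval, coloured by complex. The intervals of ND-B17 and ATPsynB lie above 0 and all others include 0.

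The high ratios of sevS11 extraction 1 went with short gene length across the whole array. Gene span, from start to end with introns, was available for 3549 of 3586 tested genes and all 45 subunit genes, whose median span was 1178 bases against 2729 bases over the tested genes. Over all tested genes the Spearman correlation of ratio with span was -0.41 in sevS11 extraction 1 and 0.11 in extraction 2, against 0.25 and 0.01 in the sevd2 extractions. Genes of 1 extraction share its RNA and arrays, so this describes the extraction. Over the 45 subunit genes the correlation was -0.35 in sevS11 extraction 1.

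Within a span class the subunit genes can be set beside other short genes. Under 1000 bases, the 15 subunit genes had a median of 0.59 in sevS11 extraction 1 and the 332 other genes 0.43. From 1000 to 2000 bases, the 22 subunit genes had 0.58 and the 914 other genes 0.12. Over 2000 bases, the 8 subunit genes had 0.06 and the 2258 other genes -0.15. These 8 ran from ATPsynbeta (-0.56), ATPsynC (-0.15), ND-75 (-0.09) and ND-39 (-0.03) through COX6B (0.15), ND-MLRQ (0.32) and ND-15 (0.41) to ATPsyndelta (0.72). In each class the subunit genes had the higher median, and in the shortest the gap was smallest. In sevS11 extraction 2 the subunit medians in the 3 classes were -0.13, 0.01 and -0.11.

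When the trend of ratio with span was subtracted from each array, the median of the 45 subunit genes in sevS11 extraction 1 was 0.22, against 0.53 before. Above 0 in that extraction were then 22 genes of complex I, 2 of complex III, 7 of complex IV and 8 of complex V, so the genes were not all the same ones as before. The complexes then had medians of 0.22 (I), 0.22 (III), 0.27 (IV) and 0.16 (V) in that extraction. In sevS11 extraction 2 the median was -0.06, against 0.04 and 0.04 in the sevd2 extractions. ATPsynB (0.51 ± 0.08, limma, adjusted p = 0.029) and ND-B17.2 (0.50 ± 0.08, adjusted p = 0.029) were again the 2 genes that passed in sevS11, and none passed in the other comparisons.

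**Figure D5:**
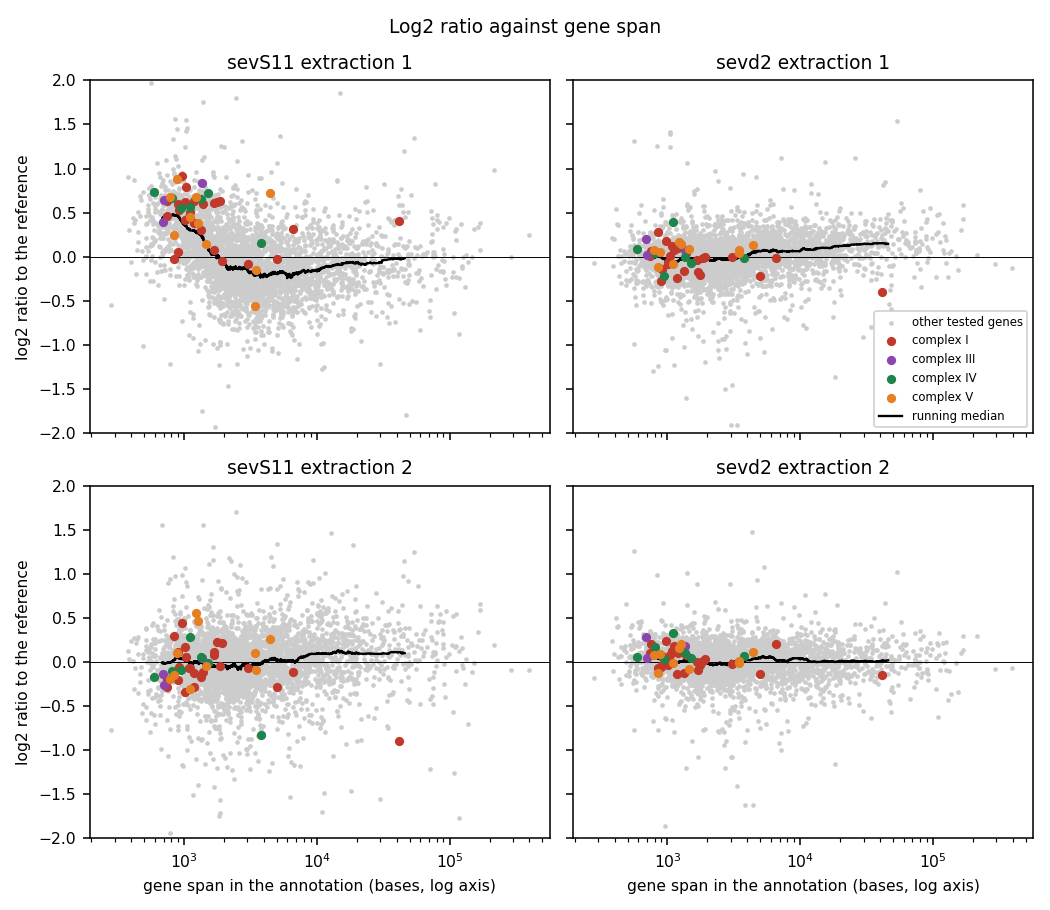
Log2 ratio to the reference (y axis, from -2 to 2, values beyond not drawn) against gene span in bases (x axis, log scale) in the 2 sevS11 extractions (left) and the 2 sevd2 extractions (right), with 1 point per tested gene, the subunit genes coloured by complex and a running median over genes as a black line. In sevS11 extraction 1 the line falls with span among the shorter genes and then levels off, and most subunit genes sit at the short end above 0.

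Ribosomal protein genes were high in the same extraction and proteasome genes were not. The 33 cytosolic ribosomal protein genes had medians of 0.51 and -0.10 in the sevS11 extractions, against -0.01 and -0.03 in sevd2. The 48 mitochondrial ribosomal protein genes had 0.41 and 0.00 in sevS11, against -0.06 and 0.00 in sevd2. The 27 proteasome genes had 0.02 and -0.12 in sevS11, against -0.03 and -0.04 in sevd2. Even so, 21 of the 27 were higher in sevS11 extraction 1 than in extraction 2. Their median gap was 0.20, against 0.59 for the cytosolic and 0.42 for the mitochondrial ribosomal protein genes. The subunit genes therefore had medians close to those of both ribosomal groups in each sevS11 extraction, and no test of a difference from them was made.

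Genes next to the respiratory chain gave the following. In 10 lists of pathway genes, no gene other than ATPsynB passed in any comparison (limma). In complex II, succinate dehydrogenase, 3 of 6 listed genes were tested, with medians of 0.45 and 0.08 in the sevS11 extractions, against 0.07 and 0.10 in sevd2. The lowest p in sevS11 was that of SdhD, a membrane anchor (0.35 ± 0.13, adjusted p = 0.166). The catalytic genes of complex III that the symbol rule leaves out, RFeSP (the Rieske iron-sulfur protein) and Cyt-c1 (cytochrome c1), had ratios of 0.16 and 0.09 in sevS11 extraction 1, -0.44 and 0.13 in extraction 2, and -0.38 to -0.06 in sevd2. Of the complex IV subunits kept under older names, levy had 0.49 and -0.13 in the sevS11 extractions, against 0.13 and 0.11 in sevd2. The other, cype, had 0.43 and -0.07 in the sevS11 extractions, against 0.29 and 0.35 in sevd2.

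Enzymes that feed the chain are encoded by longer genes: the tested genes of the tricarboxylic acid cycle and pyruvate dehydrogenase span 1991 to 13903 bases, and those of glycolysis 1480 to 6189 bases. No test set them against the subunit genes. The 7 tested genes of the tricarboxylic acid cycle and pyruvate dehydrogenase had medians of -0.16 and -0.11 in the sevS11 extractions, against -0.12 and -0.10 in sevd2. Their lowest p was that of ScsbetaG, a subunit of succinyl-CoA synthetase, in sevS11 (-0.36 ± 0.10, limma, adjusted p = 0.111), that of Idh3b, a subunit of the NAD-dependent isocitrate dehydrogenase, in sevd2 (-0.29 ± 0.11, adjusted p = 0.501), and that of ScsbetaA in sevS11 minus sevd2 (-0.30 ± 0.19, adjusted p = 0.521). The 6 tested glycolysis genes had medians of -0.06 and -0.01 in sevS11, against -0.09 and 0.00 in sevd2, led by Pgi, glucose-6-phosphate isomerase, in sevS11 (-0.30 ± 0.10, adjusted p = 0.126). The remaining lists were thinly measured. Of assembly factors 3 of 12 were tested, with medians of -0.18 and 0.14 in sevS11, against -0.12 and 0.09 in sevd2. Of membrane carriers 2 of 7 were tested, led by Mpcp2, a phosphate carrier (0.35 ± 0.14 in sevS11 minus sevd2, adjusted p = 0.388). Of genes for mitochondrial genome maintenance 2 of 13 were tested, led in sevS11 by mtSSB, the mitochondrial single-strand DNA-binding protein (0.29 ± 0.20, adjusted p = 0.405), which had 0.71 in sevS11 extraction 1 and -0.14 in extraction 2. The 7 tested genes of the ATP synthase head and stalk had a median of 0.38 in sevS11 extraction 1 and 0.10 in extraction 2, against 0.08 and -0.01 in sevd2. In these bulk samples, fewer cells of a type and less RNA per cell cannot be told apart.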

How the data were processed

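The 7 arrays, 3 for sevS11 and 4 for sevd2, were compared with 1 pool of w1118 RNA. Amplified RNA carried Cy3 or Cy5, per the labels' protocols. The authors deposited 1 value per probe and array, taken here as a log2 ratio. The submitters' processing notes name limma. How background was corrected, how arrays were normalised and filtered, the log base and the direction: not given in the sources used here. Array medians lay between 0.0012 and 0.0191, and no further centring was applied. Of 16416 probes 8650 had no value and 3064 had one on all 7 arrays. Probes were named from the platform annotation, with symbols updated from the gene table of the Release 6 plus ISO1 MT assembly, which also supplied gene spans (12533 by gene identifier, 120 by accession, 511 kept under the older symbol, 101 with several genes and 3151 not listed left unnamed). Probes of a gene were averaged (247 genes).

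The replicate was the extraction, and its arrays were averaged; where 1 array of a pair had no value, the other stood for the extraction. The unswapped sevS11 array was corrected by the dye effect per gene of the swapped pairs; ND-24L had no such pair and was not corrected. A model with 1 mean for each genotype and a shared spread was fitted to the 4 extractions with limma 3.58.1 in R 4.3.3 (lmFit and eBayes; residual degrees of freedom 2, prior 3.8), and p-values were adjusted by Benjamini-Hochberg over 3586 genes at 0.05. The tests against the pool leave out the spread of the control, and precision is limited by how few arrays there are. The steps were tested on simulated data. The members, the 10 pathway lists, the marker lists and the rule for named genes were chosen with earlier results of these data known, and the list of older names was added after the data were seen. Named were genes that passed, the 2 highest and 2 lowest per complex and comparison, core subunits, the lowest p per list, and sev; other genes were named as exceptions after their values were seen. The alternatives covered the dye correction, centring, scaling, quantile normalisation, an array-level fit, complete genes, single probes, the span trend, a replicate block and leaving out each array or extraction. No sequence was used here.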

Additional observations from a re-analysis of the deposited data

Results flagged for a closer look

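For 5 subunit genes both sevS11 extractions lay on one side of the reference and both sevd2 extractions on the other, or 11.1% of the 45, against 16.3% of all tested genes. The difference between the genotypes was tested with limma, and none of the 5 passed. ND-B17 had 0.62 and 0.23 in the sevS11 extractions, against -0.21 and -0.04 in sevd2, a difference of 0.54 ± 0.18 (adjusted p = 0.307). Its 0.23 in sevS11 extraction 2 was 0.03 before the dye correction. ND-B22, an accessory subunit of complex I, had 0.62 and 0.17 in sevS11, against -0.05 and -0.01 in sevd2, a difference of 0.43 ± 0.19 (adjusted p = 0.412). For ND-42 the difference was 0.21 ± 0.13 (adjusted p = 0.519) and for ND-B14.5A, also of complex I, it was 0.17 ± 0.13 (adjusted p = 0.582), with no sevS11 extraction above 0.12. ATPsynC went the other way, with -0.15 and -0.10 in sevS11, against 0.07 and 0.02 in sevd2, a difference of -0.17 ± 0.13 (adjusted p = 0.579).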

How the results depend on the processing

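The count of subunit genes that passed in sevS11 was 2 as reported (4.44%, against 5.77% of all genes). It was 1 without the dye correction (2.22%, against 4.52% of all genes) and 1 with centred arrays (2.22%, against 5.66%). With each probe on its own the count was 1. An array-level fit with the extraction as a random block gave 10 (22.2%, against 15.8% of all genes). A replicate block on the extraction number gave 4 (8.89%, against 10.7%). Leaving out arrays or extractions in turn gave 0 to 37. In sevd2 the count of 0 became 1 with scaled and 1 with quantile-normalised arrays (2.22%, against 4.85% and 4.63% of all genes). It stayed 0 on leaving out 1 array with 2 extractions kept per genotype, against 0% to 1.03% of all genes. For sevS11 minus sevd2 leaving out gave 0 to 33. The cause of these moves was not tested. The replicate block changed no count in the other 2 comparisons, and the extraction numbers were not shown to pair the samples (correlation of deviations -0.07, 2 pairs).

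On leaving out, the sevS11 medians ranged from -0.10 to 0.47 for complex I, -0.13 to 0.64 for complex III, -0.15 to 0.65 for complex IV and 0.00 to 0.45 for complex V. For sevS11 minus sevd2 they ranged from -0.08 to 0.50, -0.35 to 0.60, -0.08 to 0.60 and -0.03 to 0.50 in the same order. Some single genes passed with the sign opposite to their reported means. In sevS11 these were ATPsynO (range on leaving out -0.36 to 0.45), ND-B14 (-0.35 to 0.47), ND-B14.7 (-0.40 to 0.42), ND-PDSW (-0.33 to 0.39) and UQCR-14 (-0.32 to 0.64), each at its low end without sevS11 extraction 1, and ND-15 (-0.89 to 0.41), at its high end without sevS11 replicate 3. In sevS11 minus sevd2 it was ND-15 (-0.62 to 0.68), at its low end without sevS11 extraction 1. The call of ATPsynB was lost without sevS11 replicate 1 (0.59, limma, adjusted p = 0.0607) and without sevd2 extraction 1 (0.56, adjusted p = 0.114), as was that of ND-B17.2 (0.65, adjusted p = 0.077, and 0.69, adjusted p = 0.0573). Of 2361 alternatives for single genes, 2094 kept direction and side of the threshold, 169 changed sign without passing, 85 newly passed, 6 no longer passed and 7 passed with the opposite sign. Most of those newly passing came from the fit without sevS11 replicate 3. That fit has a lone sevS11 extraction, and large shares of all genes passed in it too.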
